A study of Mus musculus with 6 samples.

Results

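The 10 genes described here encode integrin subunits other than the α7 subunit that muscle stem cells (MuSCs) are commonly sorted by: the α subunit genes Itga1, Itga3, Itga4, Itga5, Itga6, Itga9 and Itgav, and the β subunit genes Itgb1, Itgb5 and Itgb8. They were chosen by name, with no measured value in the rule, and are 10 of the 26 mouse integrin subunit genes and of the 22706 genes in the table. RNA was measured by RNA-seq in MuSCs from 3 groups of mice with 2 libraries each. The control group was wild type, the mdx group carried the dystrophin mutation that serves as a model of Duchenne muscular dystrophy, and the Sirt6mKO/mdx group carried that mutation together with a deletion of Sirt6, a histone deacetylase gene, in the muscle lineage. All samples are labelled with the strain C57BL/6. The study obtained its mdx animals on the related C57BL/10ScSn background, and states that its mice were kept on C57BL/6 with littermates as controls. Sirt6mKO mice had floxed Sirt6 alleles and a Cre recombinase driven by the Pax7 gene that is always active, so the deletion is not limited to adult MuSCs but reaches every cell that once expressed Pax7, muscle fibres included. The study isolated MuSCs from digested limb and trunk muscle by flow cytometry, either with antibodies against integrin α7 and CD34 after cells with Sca1, CD45 or CD31 had been excluded, or by a Pax7 reporter. The labels do not say which way each library was sorted, nor give age, sex or pooling of animals. The study describes the mice of these 3 groups as adult males, which the Xist values of the control libraries go against. Its methods call the 2 RNA-seq libraries of a group biological replicates without giving the number of animals behind each.

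Integrins are receptors made of 1 α and 1 β subunit that hold a cell to the extracellular matrix and connect it through talin and kindlin to the actin cytoskeleton. The α subunit largely decides the ligand. The α1 subunit serves a collagen receptor, α3, α6 and α7 serve laminin receptors, α5 the classical fibronectin receptor, α4 and α9 receptors for fibronectin, VCAM1, osteopontin or tenascin, and αv a group of receptors for ligands with the RGD motif. Subunit β1 can pair with every α subunit named so far. β5 and β8 pair with αv alone, and αvβ8 is known for binding latent TGF-β and enabling its activation. MuSCs lie between the fibre membrane and a laminin-rich basal lamina, and β1 integrin is known to be needed there to keep them in their niche and responsive to growth factors.

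The promoters of the 3 subunit genes that the comparisons turn on are shown so that their sequence can be set beside their values. Each runs from 250 bases before to 50 bases after a RefSeq transcription start on GRCm38.p6, on the strand of the gene, and capitals mark the GC box (GGGCGG), the CCAAT motif and the E-box (CANNTG), searched on both strands. No 2 matches overlapped.
Itgb8, chr12:119238227-119238526, minus strand: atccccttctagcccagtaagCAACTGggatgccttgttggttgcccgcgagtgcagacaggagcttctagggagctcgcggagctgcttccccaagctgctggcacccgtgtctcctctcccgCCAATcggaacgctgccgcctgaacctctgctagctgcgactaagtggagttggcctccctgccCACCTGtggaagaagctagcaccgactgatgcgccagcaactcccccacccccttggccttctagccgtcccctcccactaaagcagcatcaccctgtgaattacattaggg
Itgb1, chr8:128685404-128685703, plus strand: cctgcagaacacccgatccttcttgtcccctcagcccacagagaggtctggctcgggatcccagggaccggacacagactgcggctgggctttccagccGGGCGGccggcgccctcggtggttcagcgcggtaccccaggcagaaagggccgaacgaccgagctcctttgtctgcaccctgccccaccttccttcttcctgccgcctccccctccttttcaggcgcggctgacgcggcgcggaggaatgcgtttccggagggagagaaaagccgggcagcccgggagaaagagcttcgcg
Itgav, chr2:83724147-83724446, plus strand: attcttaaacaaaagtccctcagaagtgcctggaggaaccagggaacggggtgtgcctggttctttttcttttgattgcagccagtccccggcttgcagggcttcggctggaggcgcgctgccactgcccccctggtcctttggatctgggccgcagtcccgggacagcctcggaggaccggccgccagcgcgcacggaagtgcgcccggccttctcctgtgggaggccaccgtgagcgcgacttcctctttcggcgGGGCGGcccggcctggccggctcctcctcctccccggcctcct
The Itgb8 window held 2 E-boxes and 1 CCAAT box and no GC box. The Itgb1 and Itgav windows held 1 GC box each, and neither of the other motifs. Among all 32851 promoter windows of 300 bases, 72.3% held an E-box, 37.4% a CCAAT box and 35.7% a GC box. Neither an AP-1 motif (TGANTCA, in 7.8% of all windows), the binding motif of the Fos and Jun factors, nor a TATA box (TATAAA, 13.6%) was among the letters of the 3 windows. GC content was 60.7% for Itgb8 and 67.3% for both Itgb1 and Itgav, against a median of 52.7% over all windows. Of the 10 genes, 9 had a promoter window in the table used.

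Values are the authors' normalised read counts, whole numbers in which each library had been divided by a size factor. The approximate depth behind them was 4397632 to 9744261 reads per library, and the value of a single read ranged from 0.65 to 1.86. The 12 MuSC markers, Pax7 among them, were above 0 in every library, with a summed value of 26531 to 35860, while 11 leukocyte markers summed to 130 and 173 in control, 143 and 107 in mdx, then 233 and 243 in Sirt6mKO/mdx, the last above every other library. In mdx against control, Lyz2 of this list was called higher by 3.22 and Cd68, the larger part of the control sums, lower at -1.60 on the log2 scale, with 5 of the 8 tested positive. The leukocyte antigen gene Ptprc was listed at 0 in both control libraries, at 5 and 3 in mdx, then at 3 and 19 in Sirt6mKO/mdx. The part of these markers in any integrin value was not tested. Facts of the libraries bear on the comparisons below. Xist, expressed from the inactive X chromosome, had values of 16772 and 12950 in the control libraries and 7 to 34 in the other 4, and Ddx3y of the Y chromosome 3 and 8 against 1024 to 1767, so sex and genotype cannot be told apart in the comparisons with control. Sirt6 itself did not separate the groups, reading 41 and 32 (control), 33 and 40 (mdx) and 37 and 30 (Sirt6mKO/mdx). The values cover the whole gene, of which the deletion removes a part. Further, 16 immediate early and heat shock genes that tissue dissociation induces summed to 147420 and 159886 in control, 23022 and 25158 in mdx, then 120601 and 111255 in Sirt6mKO/mdx, and all 16 were called lower in mdx than in control and higher in Sirt6mKO/mdx than in mdx. Their part in any integrin value was not tested. In sorted bulk RNA, fewer cells of a type and less RNA per cell cannot be told apart.

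**Figure D1:**
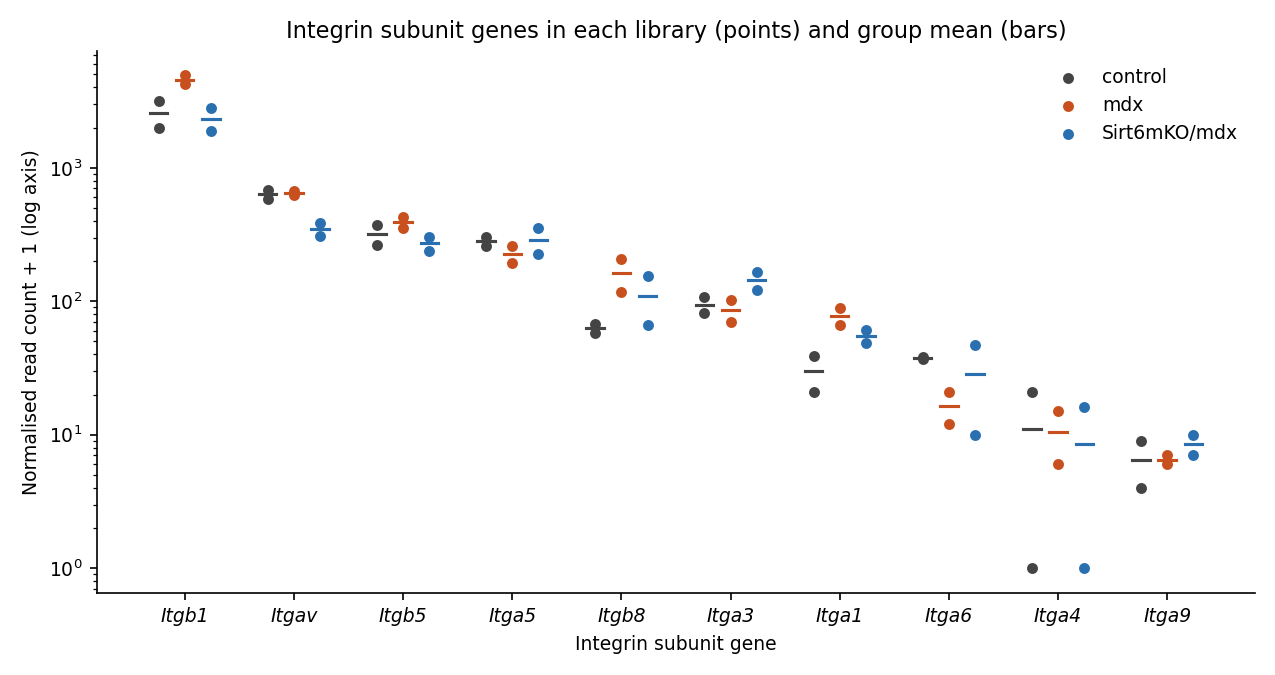
Normalised read count plus 1 (log axis) of the 10 integrin subunit genes, with 1 point per library, a bar for the mean of each group of 2, and genes ordered by mean value. The 2 mdx points of Itgb1 (4921 and 4239) and of Itgb8 (207 and 117) lie above both control points, and the 2 Sirt6mKO/mdx points of Itgav (385 and 307) lie below the other 4.

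To see which receptors these cells could build, levels were compared between genes as value per exonic kilobase, the only scale here that allows for gene length. The length was that of all annotated exons of a gene merged, from 3.55 kilobases for Itgb5 to 18.6 for Itga1 among the 10. It was not that of the transcripts expressed, so long annotated exons can lower a level, and the order and shares are approximate. Itgb1 was the most abundant of all 26 subunit genes, with 485 and 774 per kilobase in control, 1210 and 1040 in mdx, then 458 and 683 in Sirt6mKO/mdx. Itga7, the sorting antigen and not one of the 10, came second at 248 to 402 per kilobase over the 6 libraries. Of the 10, Itgb5 followed at 67.0 to 119, Itga5 at 39.3 to 71.4, Itgav at 28.6 to 63.6 and Itga3 at 12.1 to 28.7 per kilobase. Itgb8 lay at 5.15 to 18.7, Itga6 at 0.997 to 5.10 and Itga1 at 1.08 to 4.73 per kilobase. Of the 10, Itga9 and Itga4 were lowest by mean, at no more than 1.17 and 1.43 per kilobase.

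The order was not equally firm everywhere. In control, the libraries of Itgav and Itga5 overlapped, as did those of Itga1 and Itga4 and of Itga4 and Itga9. In mdx, only the neighbours Itga3 and Itgb8, and Itga9 and Itga4, overlapped. In Sirt6mKO/mdx, Itgb5 overlapped with Itga5, Itgav with Itga3, Itga6 with Itga1, and Itga9 with Itga4. Itga6 also overlapped with Itga9 and Itga4 there, and in the second library lay below Itga4, at 0.997 against 1.07 per kilobase. The place of Itgav thus differed by group, ahead of Itga5 without overlap in mdx and behind it without overlap in Sirt6mKO/mdx. These are orders of 2 libraries per group and carry no test.

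Among the 12 α subunits that can pair with β1, Itga7 took 59.9% to 66.5% of the summed value per kilobase. The fibronectin receptor subunit Itga5 took 7.01% to 14.1% and Itgav 5.64% to 12.3%. Itga8, which is not one of the 10 and also serves RGD ligands, took 7.86% to 10.3%. The laminin receptor subunit Itga3 took 2.15% to 6.93%. Itga6, the other laminin receptor subunit, took 0.197% to 1.23%, and the collagen receptor subunit Itga1 0.221% to 0.843%. Laminin receptor transcripts other than Itga7 were therefore mostly Itga3.

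Set against that α sum, Itgb1 per kilobase gave a ratio of 0.995 and 1.5 in control, 2.15 and 1.72 in mdx, then 1.11 and 1.35 in Sirt6mKO/mdx. Both mdx libraries stood above the other 4. Of the β subunits that pair with αv, Itgb1 left aside, Itgb5 took 77.2% to 90.7% of the value per kilobase. Itgb8 took 6.29% and 5.15% in control, 13.0% and 9.33% in mdx, then 5.99% and 15.9% in Sirt6mKO/mdx. The Itgb8 share was higher in both mdx libraries than in both control libraries, and 1 Sirt6mKO/mdx library lay among the control values and the other above every mdx value. Itgb6 and Itgb3 made up the rest, at no more than 5.51% and 2.59%.

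**Figure D2:**
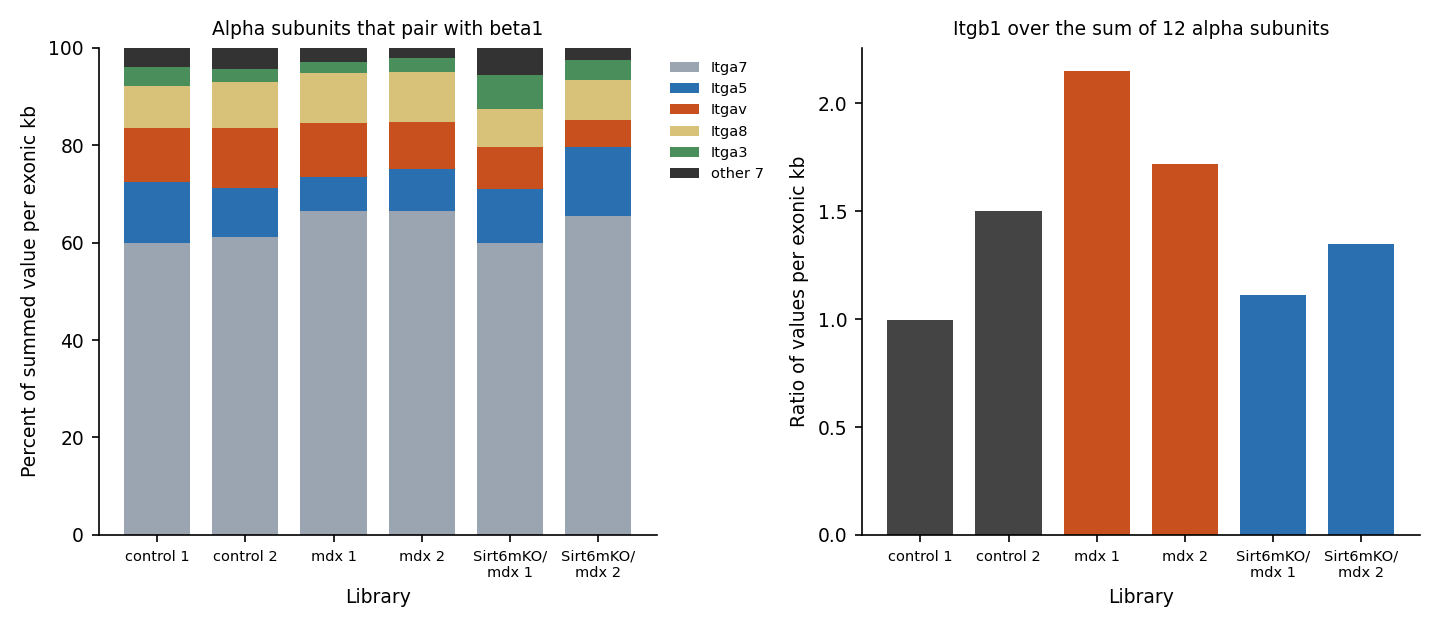
Left, share (percent) of each α subunit gene in the summed value per exonic kilobase of the 12 that pair with β1, by library; right, ratio of Itgb1 to that sum, per exonic kilobase, by library. Itga7 takes 59.9% to 66.5% in every library, and the ratio is highest in the mdx libraries (2.15 and 1.72).

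The first comparison asked how MuSCs of dystrophic muscle differed from control cells. Of the 10 genes, Itgb8 rose in mdx and no other was called. A gene was called when its adjusted p in limma was at most 0.05 and its fold change at least 2, a log2 fold change of 1 on the log2(value + 1) scale. By this rule 14.2% of the 15915 genes tested were called in this comparison, and 1 of 10 is close to that share. An unadjusted p of at most 0.05 was reached by 3 of the 10, against 31% of all genes, and groups did not overlap for 4 of the 10, against 57%. The median log2 fold change of the 10 was 0.21, against 0.00 over all genes tested. All 10 had the mean value of 5 needed for testing.

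Itgb8 (ENSMUSG00000025321; GRCm38 chromosome 12, 119158022 to 119238802, minus strand), the αv partner that binds latent TGF-β, had values of 57 and 66 in control against 207 and 117 in mdx. Both mdx libraries exceeded both controls, although they differed among themselves more than the controls did. The log2 fold change was 1.33 (SE 0.43, adjusted p = 0.0442), a 2.51-fold rise with a 95% interval of 0.42 to 2.24 on the log2 scale. Some 38 and 86 reads lay behind the control values and 316 and 150 behind the mdx values. The call was lost in 8 of 15 alternative analyses, among them those without either control library, either mdx library or the second Sirt6mKO/mdx library, with adjusted p between 0.0295 and 0.392 over the 15. Its log2 fold change was 0.92 without the first mdx library and 1.74 without the second.

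Itga1 (ENSMUSG00000042284; chromosome 13, 114958079 to 115101964, minus strand), the collagen receptor subunit, had 20 and 38 in control against 88 and 65 in mdx. The groups did not overlap, and the log2 fold change of 1.42 (SE 0.47, adjusted p = 0.0525) was larger than that of Itgb8 but missed the threshold. It passed in 2 of the 15 alternatives: with a robust prior variance (adjusted p = 0.0438) and without the second control library (1.87, adjusted p = 0.0306). Its exons share 685 bases, 3.7%, with Gm49395 on the same strand, which leaves the counting of those bases uncertain.

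Itgb1 (ENSMUSG00000025809; chromosome 8, 128685654 to 128733200, plus strand), the common β partner, had 1980 and 3159 in control against 4921 and 4239 in mdx. No mdx value reached down to a control value, yet the control libraries lay far apart, and the log2 fold change of 0.87 (SE 0.32) had an adjusted p of 0.0777. Without the second control library it was 1.21 (adjusted p = 0.0413), and without the first 0.53 (adjusted p = 0.396). Which control library was used decided whether this difference was called.

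The other 7 genes lay further from the threshold in mdx against control. Itga6, a laminin receptor subunit, had 36 and 37 in control against 20 and 11 in mdx, at -1.24 on the log2 fold scale (SE 0.73, adjusted p = 0.269). Its groups did not overlap, but no more than 48 reads lay behind any of its values. Itgb5 had 264 and 369 against 424 and 353, and the fibronectin receptor subunit Itga5 304 and 258 against 194 and 259, both with overlapping groups. Itgav was nearly level, at 579 and 683 in control against 671 and 624 in mdx, at a log2 fold change of 0.04 and an interval of -0.48 to 0.56. That interval leaves room for a difference of less than 1.5-fold either way and not for a 2-fold one. Itga3 had 106 and 80 in control against 69 and 101 in mdx.

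Itga9 and Itga4 were near the limit of detection. Itga9 had 3 and 8 in control against 6 and 5 in mdx, from 2 to 10 reads, and Itga4 had 0 and 20 in control against 14 and 5 in mdx. The 0 of the first control library allows a value of up to 4.53, that of 3 reads. Differences of either gene were not resolved by these libraries: the interval for Itga4 ran from -2.14 to 4.23 on the log2 scale.

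Fibro-adipogenic markers, 9 genes of the connective tissue cells of muscle, summed to 20925 and 27607 in control against 39085 and 32001 in mdx. Most of that sum was Col3a1. Of the 9, 2 (Ly6a and Col1a1) were called higher, 22.2% beside 14.2% for all genes, and 8 had a positive log2 fold change. In the second mdx library, however, Dcn, Lum, Dpt, Pi16 and Clec3b lay below both control libraries. The 8 proliferation markers summed to 961 and 816 in control against 1276 and 1816 in mdx, with 5 called higher. Pcna, the larger part of the control sums, went the other way, with 764 and 490 in control against 378 and 290 in mdx. The 8 myofibre markers summed to 7179 and 10144 in control against 5021 and 1539 in mdx, with 5 called lower. The 8 endothelial markers summed to 926 and 787 in control and 445 in each mdx library, with Kdr, Emcn and Cldn5 at 0 in at least 1 library. Of the 6 tested, Kdr (-3.11) and Pecam1 (-2.05) were called lower, and most of the sum was Tek. Tenocyte markers summed to 106 and 101 in control against 65 and 45 in mdx. Mkx and Fmod of this list were called lower, and 2 of the 4 tested were positive. Smooth muscle and pericyte markers summed to 9105 and 8290 against 7295 and 7989, with Acta2 called higher and Abcc9 lower. The fibro-adipogenic and proliferation sums rose beside Itgb8, Itga1 and Itgb1, while the other sums fell. The part of these lists in the integrin values was not tested.

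**Figure D3:**
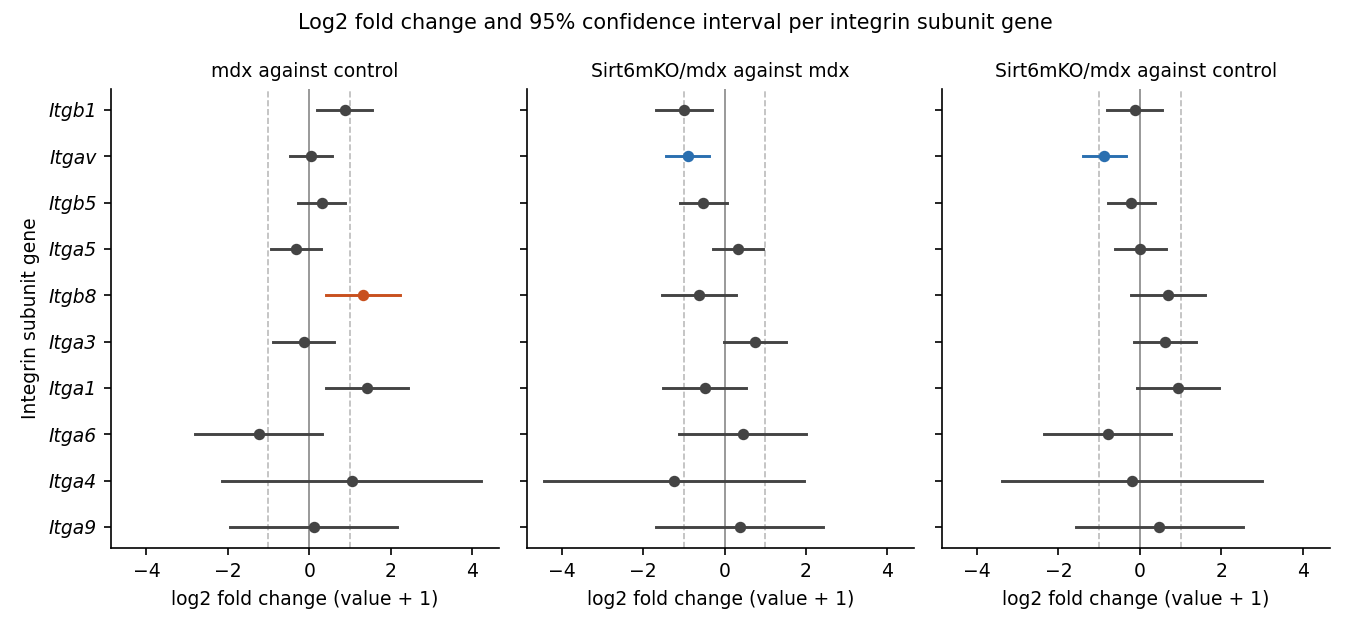
Log2 fold change (value + 1) of each integrin subunit gene with its 95% confidence interval from limma in the 3 comparisons, genes in rows, dashed lines at a 2-fold change. Orange marks the only called gene, Itgb8 in mdx against control (1.33), and blue marks Itgav, whose adjusted p is below 0.05 at less than 2-fold (-0.91 against mdx and -0.87 against control).

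The second comparison set Sirt6mKO/mdx against mdx cells, to ask what the deletion of Sirt6 changes in the dystrophic background. None of the 10 genes was called by limma, where 8.17% of all genes tested were. Of the 10, 2 had an unadjusted p of at most 0.05, against 25.2% of all genes, and 5 had groups that did not overlap, against 56%. The median log2 fold change of the 10 was -0.51, against 0.02 over all genes. The genes nearest to a call were Itgav and Itgb1, both with lower values in Sirt6mKO/mdx.

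Itgav (ENSMUSG00000027087; chromosome 2, 83724397 to 83806916, plus strand) had 671 and 624 in mdx, then 385 and 307 in Sirt6mKO/mdx. Both Sirt6mKO/mdx values lay below all other values of the gene. The log2 fold change was -0.91 (SE 0.24, adjusted p = 0.0321), 0.532 times the mdx level and short of the 2-fold minimum. Its adjusted p stayed at or below 0.05 in 9 of 15 alternatives and reached 0.22 in the others, which include each fit without 1 mdx or 1 Sirt6mKO/mdx library, while the log2 fold change lay between -1.54 and -0.75. Itgav shares 634 exonic bases, 5.9%, with Gm13684 on the opposite strand, and the use of strand in counting was not stated.

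Itgb1 had 4921 and 4239 in mdx, then 1871 and 2787 in Sirt6mKO/mdx, values that did not overlap. The log2 fold change of -1.0 (SE 0.32, adjusted p = 0.0649) missed both the minimum fold, narrowly, and the threshold. In the alternatives it ran from -1.63 to -0.71, and adjusted p from 0.00524 to 0.471.

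Itgb8 had 207 and 117 in mdx, then 65 and 153 in Sirt6mKO/mdx. The 2 Sirt6mKO/mdx libraries fell on both sides of the lower mdx library, and the log2 fold change of -0.64 (SE 0.43, adjusted p = 0.38) leaves both a return to the control level and no change within its interval of -1.54 to 0.27. Without the first Sirt6mKO/mdx library it was -0.02, and without the second -1.25.

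Itga3, the laminin receptor subunit, had 69 and 101 in mdx, then 164 and 121 in Sirt6mKO/mdx, without overlap and with the highest value of the gene in the first Sirt6mKO/mdx library. Its log2 fold change was 0.75 (SE 0.36, adjusted p = 0.205). Itgb5 had 424 and 353 against 303 and 238, also without overlap, at a log2 fold change of -0.53 (adjusted p = 0.243). Itga1 had 88 and 65 against 48 and 60, at a log2 fold change of -0.49 (adjusted p = 0.565). Itga5 had 194 and 259 against 226 and 352, and Itga6 20 and 11 against 46 and 9, a wide spread within 1 group. Itga9 had 6 and 5 against 9 and 6, and Itga4 14 and 5 against 0 and 15, the 0 allowing a value of up to 4.64.

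The size of several of these values, and whether they were called, depended on how libraries were scaled. The summed values of the Sirt6mKO/mdx libraries were larger than those of the other groups, and scaling all libraries to equal totals moved the median of all genes to -0.59 in both comparisons with this group. Under that scaling Itgb1 (-1.63), Itgav (-1.54), Itgb8 (-1.26) and Itgb5 (-1.15) were all called lower than in mdx. Relative to the shifted median these were -1.04, -0.95, -0.67 and -0.56. Beside these values, the fibro-adipogenic markers summed to 21351 and 28842 in Sirt6mKO/mdx and the myofibre markers to 11410 and 5503, the latter with 4 of 8 called higher than in mdx. Proliferation genes summed to 1276 and 1816 in mdx against 690 and 1089 in Sirt6mKO/mdx, where 3 of 8 were called lower. Smooth muscle and pericyte markers summed to 7295 and 7989 against 4601 and 4724, and endothelial markers to 445 in each mdx library against 641 and 674, with no gene of either list called. The former sum was mostly Notch3 and Acta2, and 5 of the 8 smooth muscle and pericyte markers had a positive log2 fold change, with a median of 0.27. The part of these cell types in the integrin values was not tested.

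The last comparison set Sirt6mKO/mdx against control, groups that differ in both the mdx mutation and the Sirt6 deletion. It uses the same libraries as the other 2, so it adds no independent evidence. None of the 10 was called by limma, against 7.87% of all genes. An unadjusted p of at most 0.05 was reached by 1 of them, against 24.1%, and 3 had groups without overlap, against 51.6%. The median of the 10 was -0.06, against 0.01.

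Itgav was again the nearest, at 579 and 683 in control and 385 and 307 in Sirt6mKO/mdx, at -0.87 on the log2 fold scale (SE 0.24, adjusted p = 0.0377) and a level of 0.547 times control. Its adjusted p was at most 0.05 in 7 of the 15 alternatives and 0.30 at the highest. Itgb1 lay at 1980 and 3159 against 1871 and 2787, with overlap and a log2 fold change of -0.13, its interval running from -0.82 to 0.55. Itga1 had 20 and 38 against 48 and 60 and did not overlap, at 0.93 on the log2 fold scale (SE 0.47, adjusted p = 0.246). Itga3 had 106 and 80 against 164 and 121, likewise without overlap (0.61, adjusted p = 0.32). Itgb8 had 57 and 66 against 65 and 153, at a log2 fold change of 0.69 (adjusted p = 0.344), which was 1.3 without Sirt6mKO/mdx replicate 1 and 0.08 without replicate 2. Itgb5, Itga5, Itga6, Itga9 and Itga4 overlapped between these groups. Beside the Itgav values, smooth muscle and pericyte markers summed to 9105 and 8290 in control against 4601 and 4724 in Sirt6mKO/mdx. Of these, 1 of 8, Notch3, was called lower by limma (-1.25, adjusted p = 0.0255) and made up most of each sum. A positive log2 fold change was found for 5 of the 8, with a median of 0.06 over the list. Of the 8 tested leukocyte markers 1, Lyz2, was called higher (3.75, adjusted p = 0.027). The part of either list in the integrin values was not tested.

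**Figure D4:**
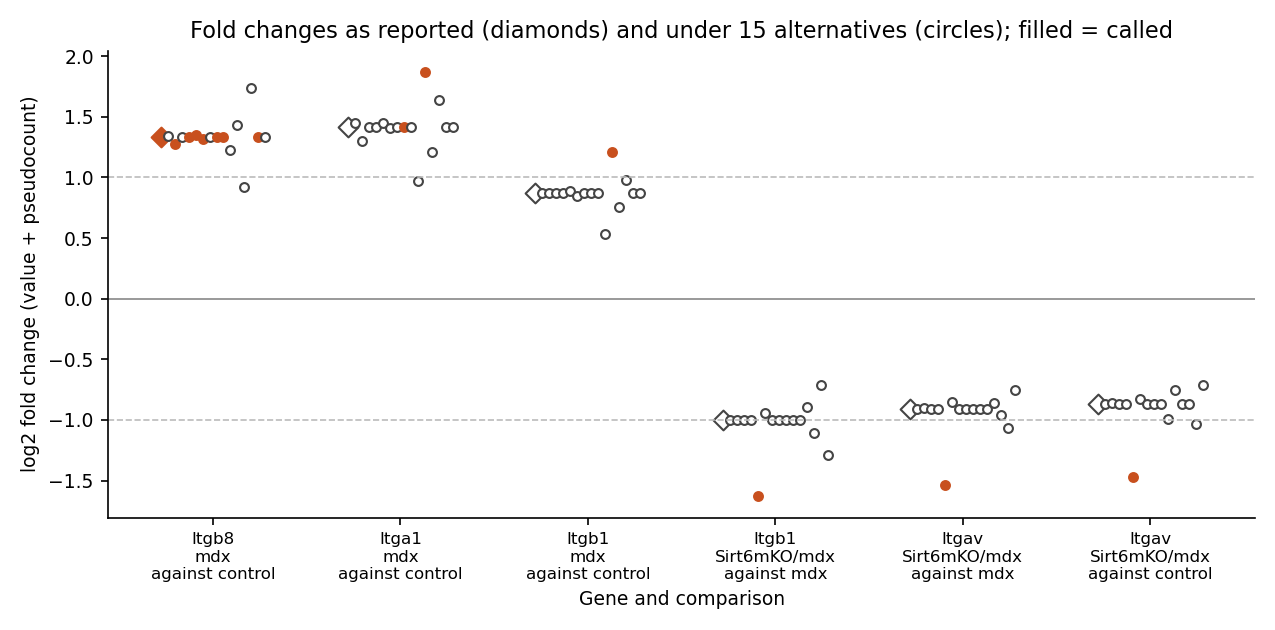
Log2 fold change (value + pseudocount, vertical axis) for 6 pairs of gene and comparison, as reported (diamonds) and in 15 alternative analyses (circles), filled where called, dashed lines at a 2-fold change. Itgb8 in mdx against control keeps a positive value throughout (0.92 to 1.74) but is called in 7 of the 15, and Itgav stays below 0 in both comparisons with Sirt6mKO/mdx.

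Across the 6 libraries, the genes whose log2 values were most like those of Itgb8, among 9665 other genes with a mean of at least 50, were Cap2 (Pearson r = 0.9966), Txndc15 (0.9961) and Hmgn1 (0.9948). Cap2, for a cyclase-associated actin-binding protein, had 202 and 241 in control, 493 and 340 in mdx, then 220 and 400 in Sirt6mKO/mdx, the same order of libraries within each group as Itgb8. They were picked as the closest of all these genes, so the coefficients describe likeness only. Among the 10 themselves, Itga1 and Itgb8 were most alike (r = 0.86), followed by Itgav and Itgb5 (0.78), which form one receptor, and Itgb1 and Itgb8 (0.77). Itga5 and Itgb5 (-0.86) and Itga3 and Itgav (-0.78) went in opposite directions. All of these rest on the same 6 libraries.

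Of the 16 other subunits, 13 had enough reads to be tested and none was called by limma in any comparison. An unadjusted p of at most 0.05 was reached by 2, 3 and 1 of the 13 in the order of the comparisons, where 31%, 25.2% and 24.1% of all genes did. Itga7 had 2364 and 2556 in control, 3022 and 3250 in mdx, then 2010 and 2684 in Sirt6mKO/mdx, but cells were selected on its protein where antibodies were used. Itga8 had 307 and 363, 428 and 455, and 240 and 302 in the same order, the log2 fold change against mdx being -0.71 (adjusted p = 0.0934). Itgb7, known from leukocytes, reached -1.58 in mdx against control (adjusted p = 0.0665) and 1.78 in Sirt6mKO/mdx against mdx (adjusted p = 0.0606). Itga2b, the platelet subunit, reached 1.49 in the latter comparison (adjusted p = 0.0531). Itga2, Itga10, Itga11, Itgae, Itgal, Itgb2, Itgb3, Itgb4 and Itgb6 were also tested, and the 3 others had a mean below 5.

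The matrix and secreted ligands of these receptors were read as 3 lists. Of 18 tested ligands for RGD-type and related receptors, 5 were called higher and 5 lower in mdx against control, with a median log2 fold change of 0.09. The share of 55.6% stands beside 14.2% for all genes, and no test of the list was made. Postn, for the matrix protein periostin that binds αv integrins, had 5 and 12 in control, 1384 and 1204 in mdx, then 164 and 760 in Sirt6mKO/mdx, and its log2 fold change in mdx was 7.19 (SE 0.53, adjusted p = 6.11e-07). Thbs1, for thrombospondin 1, had 1934 and 5337, 329 and 278, and 1328 and 1236 in the same order, and fell by 3.40 on the log2 scale in mdx (adjusted p = 1.62e-05). Lgals3, for galectin 3, rose by 3.22 in mdx (adjusted p = 0.000487). In Sirt6mKO/mdx against mdx, 4 of the 18 were called higher and 3 lower, 38.9% beside 8.17%. Cyr61 and Ctgf, both for secreted CCN proteins, and Thbs1 were called higher, by 2.36, 2.05 and 2.08. All 3 were lowest in mdx, as was the summed value of the dissociation-induced genes, whose part here was not tested. Against control, 4 of the 18 were called higher in Sirt6mKO/mdx and 4 lower (44.4% beside 7.87%), Postn among the former with 5.33.

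Of the 14 collagen chains, ligands of the α1β1 class, 5 were called higher and none lower in mdx against control, a share of 35.7% beside 14.2% for all genes, with a median of 0.50. The fibro-adipogenic markers, a list that also holds Col1a1 and Col3a1, summed to 20925 and 27607 in control, 39085 and 32001 in mdx, then 21351 and 28842 in Sirt6mKO/mdx, and their part in the collagen values was not tested. Col1a2 had 196 and 416 in control, 4730 and 6265 in mdx, then 1885 and 3535 in Sirt6mKO/mdx, at a log2 fold change of 4.25 in mdx (SE 0.36, adjusted p = 2.38e-06). Col6a3 rose by 2.68 and Col4a5, a basement membrane chain, by 2.58. In Sirt6mKO/mdx against mdx, 5 of the 14 were called lower and none higher, 35.7% beside 8.17%, with a median of -0.91. Col6a3 fell by 1.57, Col4a5 by 1.55 and Col6a2 by 1.32 on the log2 scale. Against control only Col1a2 was called in Sirt6mKO/mdx, higher by 3.17. The median of the list was 0.16.

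Laminin chains and nephronectin, ligands of α3, α6, α7 and α8 receptors, showed both directions. Of 11 tested, 1 was called higher and 2 lower in mdx against control, 27.3% beside 14.2% for all genes. Lamb1 had 331 and 763 in control, 1453 and 1440 in mdx, then 529 and 430 in Sirt6mKO/mdx, rising by 1.52 in mdx and falling by 1.60 from there. Lama3 had 622 and 533, 111 and 75, and 141 and 117 in the same order. Against mdx, 2 of the 11 were called higher in Sirt6mKO/mdx and 2 lower, 36.4% beside 8.17%. Against control, 1 of the 11 was called higher in Sirt6mKO/mdx and 3 lower (36.4% beside 7.87%), Lama3 at a log2 fold change of -2.16. The medians of the list were -0.52, -0.40 and -0.61 in the order of the comparisons.

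For latent TGF-β and the proteins that bind or tether it, the cargo of αvβ8, 2 of 9 genes were called lower in mdx against control and none higher, 22.2% beside 14.2%. Ltbp4 had 3764 and 3517 in control, 1437 and 1675 in mdx, then 944 and 694 in Sirt6mKO/mdx, its log2 fold change against control being -1.23 and then -2.17. Nrros had 47 and 25 in control, 5 in each mdx library, then 19 and 30 in Sirt6mKO/mdx. None of the 9 was called by limma in Sirt6mKO/mdx against mdx, where 3 had an unadjusted p of at most 0.05, as did 25.2% of all genes.

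On the inner side of the membrane, 5 of 26 tested activators and actin linkers were called in mdx against control, 4 higher and 1 lower, a share of 19.2% beside 14.2%. Fermt3, the kindlin of blood cells, had 76 and 49 in control, 10 and 25 in mdx, then 84 and 67 in Sirt6mKO/mdx. In Sirt6mKO/mdx against mdx, 2 of the 26 were called higher and 2 lower, 15.4% beside 8.17%. Lims1 fell from 1111 and 1117 to 486 and 445 and Parva from 857 and 848 to 325 and 413. These encode PINCH and parvin, which join integrin-linked kinase in one complex. Ilk, for that kinase, went the other way at low values, with 9 and 5 in mdx, then 19 and 15 in Sirt6mKO/mdx. Against control, 1 of the 26 was called higher in Sirt6mKO/mdx and 2 lower, 11.5% beside 7.87%. Tln1, for the integrin activator talin 1, was one of the lower ones, at 1586 and 1694 in control, 1290 and 1560 in mdx, then 1023 and 618 in Sirt6mKO/mdx. Of 22 kinases, adaptors and GTPase regulators downstream, only Pak1 was called, with 183 and 177 in control, 435 and 401 in mdx, then 300 and 294 in Sirt6mKO/mdx, and only in mdx against control (1.21, adjusted p = 0.00416), a share of 4.55% beside 14.2%. An unadjusted p of at most 0.05 was reached by 5 of the 22 in that comparison, where 31% of all genes did, by 4 in Sirt6mKO/mdx against mdx, where 25.2% of all genes did, and by 8 in Sirt6mKO/mdx against control, where 24.1% did.

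Of the 11 tested membrane partners of integrins, Sdc4, the syndecan that acts with fibronectin receptors, had 7692 and 6224 in control, 1100 and 1049 in mdx, then 2753 and 2822 in Sirt6mKO/mdx. It fell by 2.69 in mdx and was called higher by 1.37 in Sirt6mKO/mdx against mdx. Plaur, for the urokinase receptor, had 147 and 134, 48 and 21, and 90 and 106. Cav1, for caveolin 1, had 2216 and 2231, 5921 and 4702, and 3377 and 5200, and was called in mdx against control alone, where it rose by 1.25. In all, 1 of the 11 was called higher and 2 lower in that comparison, 2 higher and none lower in Sirt6mKO/mdx against mdx, and 1 lower, Sdc4, in Sirt6mKO/mdx against control. These shares of 27.3%, 18.2% and 9.09% stand beside 14.2%, 8.17% and 7.87% for all genes, the last near that background. The Sdc4 and Plaur values followed the order of the dissociation-response sums given above, and the part of that response in them was not tested.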

How the data were processed

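The deposited table held whole numbers for 22706 Ensembl genes in 6 libraries. Per the labels and the study's methods, the authors removed ribosomal RNA from total RNA, sequenced on an Ion Torrent instrument, trimmed reads, aligned them with STAR to the mouse genome GRCm38 (mm10), counted them per gene with featureCounts, leaving out reads on several genes or places, and normalised with DESeq2. The submitters' processing notes name STAR 2.4.2a, featureCounts 1.4.5-p1 and DESeq2 1.6.0. The values were taken as a score that the authors made by dividing counts by a size factor and rounding, so no count model was used. Size factors recovered from the values ranged from 0.537 to 1.527 (tested on simulated data, as was the fit) and gave 4397632 to 9744261 approximate reads per library.

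Limma 3.58.1 in R 4.3.3 was fitted to log2(value + 1) of all 6 libraries, with a prior variance that follows the mean and no block. Only the 15915 genes averaging 5 or more were tested. P-values are two-sided and Benjamini-Hochberg adjusted over these genes. A fold change on this scale understates the change of low genes. Levels per kilobase used exonic bases of GENCODE release M21, which held 98.5% of the gene identifiers. Promoters came from RefSeq.

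The 10 genes and all gene lists were chosen with earlier results of these data known. All 10 genes and every other subunit with a mean of at least 5 are named. Of each other list, the text names at most the 3 called genes with the largest absolute log2 fold change per comparison. Pax7, Ptprc, Tek, Notch3, Acta2, Emcn, Cldn5, Col1a1, Col3a1, Dcn, Lum, Dpt, Pi16, Clec3b, Pcna and Ilk are named beyond that rule. Some genes that the rule would name are not reported here. The alternatives changed the pseudocount (0.1 or 5), the minimum mean (none or 50), the scaling, the prior variance and the replicate block, and left out each library in turn.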

Additional observations from a re-analysis of the deposited data

How the results depend on the processing

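In mdx against control, 1 of the 10 genes (Itgb8) was called. The number was 0 with a pseudocount of 0.1, with no minimum mean and with one prior variance for all genes, and 2 with a robust prior variance. Leaving out 1 library gave 0 to 2: Itgb1 and Itga1 without the second control library, 0 without the first control library, either mdx library or the second Sirt6mKO/mdx library. In Sirt6mKO/mdx against mdx and against control 0 were called, but 4 (Itgb1, Itgb5, Itgb8, Itgav) and 1 (Itgav) with equal column totals. That scaling gave 479 genes higher and 2937 lower in place of 895 and 405 against mdx, and 455 and 2693 in place of 826 and 427 against control. Over all genes the calls, 2265, 1300 and 1253 in the order mdx against control, Sirt6mKO/mdx against mdx and against control, were 406, 19 and 2 with no minimum mean, 541, 0 and 87 with one prior variance, and 939 to 2356, 203 to 1475 and 213 to 1314 with a library left out. Where only 1 library of a group remained, it was assumed to vary like the others.

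Of 441 recomputed fold changes, 402 kept direction and side of the threshold, 8 lost a call, 8 gained one and 23 changed sign, none of them a called value. With equal totals the log2 fold change against mdx became -0.29 for Itga5, -0.14 for Itga6 and -0.17 for Itga9, and against control -0.59 for Itga5 and -0.05 for Itga9. That scaling moved the median of all genes to -0.59. Relative to it, the values against mdx were 0.3, 0.45 and 0.42, and those against control 0.0 and 0.54. With a library left out, mdx against control ran from -0.41 to 0.13 for Itga3, -1.15 to 3.25 for Itga4, -0.47 to 0.70 for Itga9 and -0.08 to 0.16 for Itgav. Sirt6mKO/mdx against mdx ran from -3.25 to 0.75 for Itga4 and -0.67 to 1.57 for Itga6. Sirt6mKO/mdx against control ran from -2.39 to 2.0 for Itga4, -0.31 to 0.33 for Itga5, -1.91 to 0.33 for Itga6, -0.11 to 1.06 for Itga9, -0.47 to 0.21 for Itgb1 and -0.46 to 0.02 for Itgb5. The cause of these changes, beyond the smaller number of libraries or the shifted median, was not tested. The minimum mean of 50 left 7 of the 10 genes.

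Replicate numbers are shared between groups, but nothing says that they pair samples: the differences between replicates 1 and 2 correlated across genes at -0.13 (control and mdx), 0.12 (control and Sirt6mKO/mdx) and 0.01 (mdx and Sirt6mKO/mdx). A replicate block gave 1, 0 and 0 called of the 10, the same as without it, and 2415, 1510 and 1404 called over all genes.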
